A study of Mus musculus with 159 samples.

Results

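*Cxcl12* encodes the chemokine CXCL12, also called stromal cell-derived factor 1. It was followed as 1 of the 607 genes of the deposited table, across the 4 segment types, the classes of region and the livers, together with its relation to *Marco* across regions. The gene was chosen with its measured values in view, among them its lower values in stellate cell segments of regions rich in MARCO. Its levels and differences are therefore given as a description, with no test. In RefSeq (GRCm38.p6) the gene lies on the plus strand of chromosome 6, from 117168535 to 117181368, and the table names it by symbol alone.

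CXCL12 is secreted by stromal cells and signals through the receptor CXCR4, while the atypical receptor ACKR3 takes it up. Heparan sulfate proteoglycans hold the chemokine on cell surfaces and matrix, and several proteases cleave it. In the liver, stellate cells and other perivascular cells are known sources of CXCL12, and in fibrosis the chemokine is known for drawing in leukocytes and for acting on stellate cells themselves. MARCO is a scavenger receptor of macrophages.

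The samples were segments of fixed liver sections from 4 C57BL/6 mice, stained for DESMIN, MARCO and IBA1 and profiled with the GeoMx mouse whole transcriptome probes. The mice, 8 weeks old at the start, received CCl4 by intraperitoneal injection 2 times a week for 6 weeks, and tail vein injections at weeks 3 and 5 gave MARCO+ bone marrow-derived macrophages to 2 of them and saline to the other two. The labels do not say which liver received cells. They call livers 1 and 3 treated CCl4 with fibrosis and livers 2 and 4 control and healthy, although the methods give CCl4 to all 4 mice, so the pairs are named here by their labels. Each region was divided into Des+ (DESMIN+, MARCO-, IBA1-, the segments of stellate cells), Marco+IBA+, Marco-IBA+ and Else (negative for all 3 proteins). Regions had been picked by eye as high (MarcoHi) or low (MarcoLo) in MARCO staining, so *Marco* itself chose the regions. After the authors' filters, 41 Des+, 45 Marco+IBA+, 24 Marco-IBA+ and 49 Else segments of 51 regions remained.

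The values are normalized to the upper quartile (Q3) of each segment, so each is a level relative to the other genes of the same segment. In these mixtures, fewer cells of a type and less RNA per cell cannot be told apart. The recovered counts over all genes ranged from 1448 to 16715 in Des+ segments, 3106 to 27341 in Marco+IBA+ segments, 1065 to 4457 in Marco-IBA+ segments and 75571 to 448875 in Else segments. *Cxcl12* itself had 5 to 191 counts in Des+ segments, 7 to 91 in Marco+IBA+ segments, 232 to 1794 in Else segments and only 1 to 17 in Marco-IBA+ segments. The 95% Poisson interval of a single segment, which covers counting error only, thus spanned a median ratio of 2.24 between its bounds in Des+, 2.18 in Marco+IBA+, 1.15 in Else and 5.12 in Marco-IBA+ segments. Macrophage markers other than *Marco*, and all markers listed for endothelial cells, cholangiocytes, hepatocytes and lymphocytes, were not analysed here. The reason is that the authors had reduced the genes to those they identified as found mainly in stellate cells.

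*Cxcl12* was highest in the Des+ segments and lowest in the Marco+IBA+ segments of every liver. With the ROI classes weighted equally, its mean Q3-normalized value in Des+ segments was 109.9, 127, 109.7 and 132 in livers 1 to 4. In Marco+IBA+ segments it was 36.8, 42.4, 39.9 and 41.2 in the same order. In Else segments it was 54.3, 44.1, 55.0 and 55.5. In Marco-IBA+ segments it was 63.3, 78.2, 48.2 and 57.4, where liver 2 had segments of MarcoLo regions alone. The order was thus Des+, then Marco-IBA+ and Else, then Marco+IBA+, with Marco-IBA+ second in 3 livers and Else second in liver 3. The second place rested on few segments. Liver 1 had 1 Marco-IBA+ segment in MarcoHi regions (86.9) and 5 in MarcoLo regions (mean 39.7). Without class weighting its Marco-IBA+ mean was 47.6, below that of Else. Liver 2 had 2 Marco-IBA+ segments, with 5 and 7 counts.

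Des+ exceeded Else by 1.18 ± 0.25 on the log2 scale (SD, n = 4 livers), a 2.27-fold difference that was present in 4 of 4 livers. Over the 607 genes, the means of the 4 livers lay above those of Else without overlap for 34.3% of genes, *Cxcl12* included. Des+ exceeded Marco+IBA+ by 1.55 ± 0.09 (SD, n = 4), or 2.93-fold, and here 30.8% of genes were separated in this way. The spread of that difference was small, from 1.44 in liver 3 to 1.65 in liver 4. Des+ also exceeded Marco-IBA+ by 0.96 ± 0.25 (SD, n = 4) in 4 of 4 livers, as did 116 of the 607 genes in every liver. The neighbours Marco-IBA+ and Else differed by 0.22 ± 0.43 (SD, n = 4), less than the spread between livers, with Marco-IBA+ higher in 3 livers and lower in 1. Else exceeded Marco+IBA+ by 0.37 ± 0.22 (SD, n = 4) in 4 of 4 livers, although by only 0.06 in liver 2. Of all 607 genes, 215 were higher in Else in every liver, and 136 had a larger difference than *Cxcl12*. The median difference over all genes was 0.06 for Des+ against Else and 0.08 for Des+ against Marco+IBA+.

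**Figure D1:**
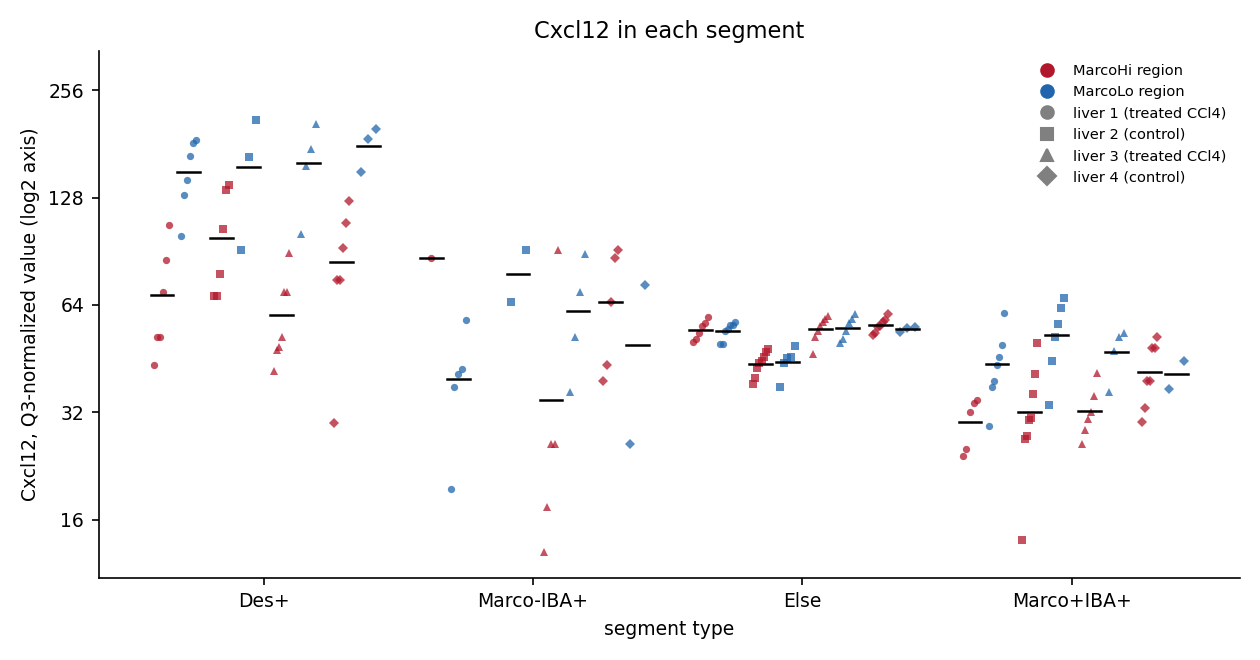
*Cxcl12* in each of the 159 segments, as the Q3-normalized value on a log2 axis, by segment type, with 1 column of points for each liver and ROI class and a black line at its mean. Des+ segments of MarcoLo regions reach 211, Else segments stay between 37.7 and 60.3, and Marco-IBA+ segments scatter from 13.0 to 91.3.

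The order of Des+, Else and Marco+IBA+ was also seen between pairs of segments in most single regions, which share the section and the place. Of the 41 regions with both segments, 34 had more *Cxcl12* in Des+ than in Else. Of the 37 regions with a Des+ and a Marco+IBA+ segment, 36 had more in Des+, with a median log2 difference of 1.31. Of the 43 regions with an Else and a Marco+IBA+ segment, 36 had more in Else. Marco-IBA+ exceeded Else in 11 of 24 regions and fell short of it in 13, so these segment types had no common order within regions. The 7 regions in which Des+ was below Else were all MarcoHi regions. Des+ was above Else in 18 of 25 MarcoHi regions, with a median log2 difference of 0.49, and in 16 of 16 MarcoLo regions, with a median of 1.68.

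Between the ROI classes, *Cxcl12* in Des+ segments was lower in MarcoHi than in MarcoLo regions of all 4 livers. This contrast is among the values on which the gene was selected. In liver 1, the 6 MarcoHi segments had values from 43.5 to 107, with a median of 60.8, and the 6 MarcoLo segments had values from 99.95 to 185, with a median of 155. In liver 3, the 7 MarcoHi segments ran from 41.7 to 89.4, with a median of 52.1, and the 4 MarcoLo segments had 101, 156, 175 and 206. These are the livers labelled treated CCl4, and the classes overlapped in liver 1 but not in liver 3, where 1.32% of all genes had every MarcoHi value below every MarcoLo value.

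The livers labelled control had the same direction. In liver 2, the 6 MarcoHi segments ran from 67.8 to 139, with a median of 91.3, and the 3 MarcoLo segments had 91.3, 166 and 211. In liver 4, the 6 MarcoHi segments ran from 29.8 to 125, with a median of 84.0, and the 3 MarcoLo segments had 151, 186 and 199. The classes overlapped in liver 2 and not in liver 4, where 2.14% of all genes were separated in this way.

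The means of the livers were 59.9 to 98.6 in MarcoHi and 151 to 179 in MarcoLo regions, which do not overlap. This held for 4.94% of the genes with MarcoHi the lower. The log2 difference was -1.07 ± 0.31 (SD, n = 4 livers), a 2.09-fold lower level, and it came to -1.14, -0.66, -1.40 and -1.07 in livers 1 to 4. It was -1.27 ± 0.19 (SD, n = 2) in the livers labelled treated CCl4 and -0.86 ± 0.30 (SD, n = 2) in those labelled control. The pairs differed by -0.40, and this difference was not tested. The median difference over all genes was 0.02, and the 3 genes with a lower mean difference were *Lum*, *Col3a1* and *Dcn*. *Lum* and *Dcn* encode the small matrix proteoglycans lumican and decorin, and *Col3a1* encodes a chain of fibrillar type III collagen.

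**Figure D2:**
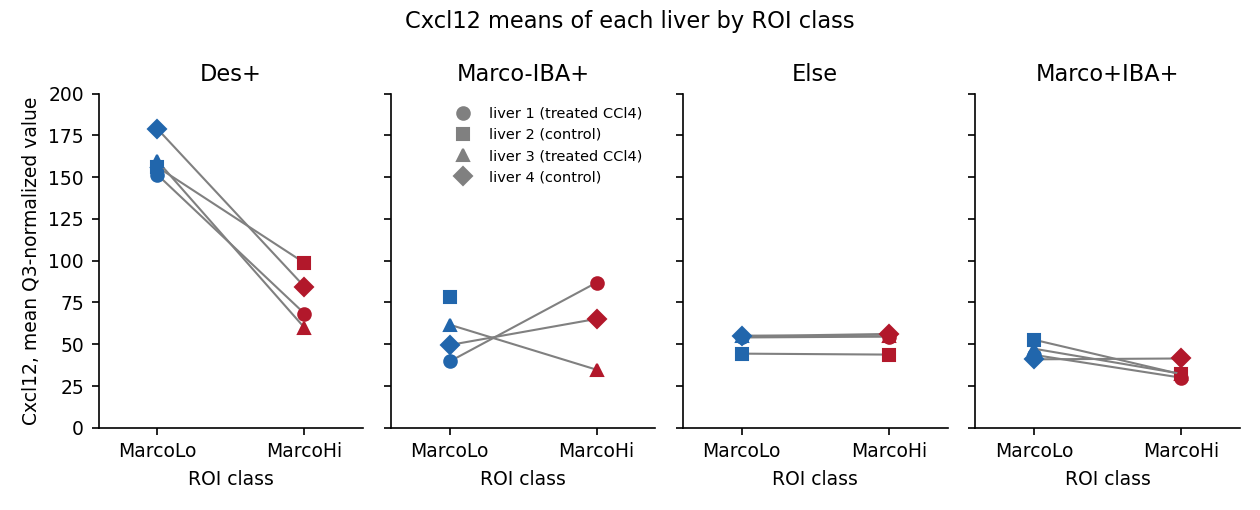
Mean Q3-normalized *Cxcl12* of each liver in MarcoLo and MarcoHi regions, 1 panel for each segment type and 1 line for each liver (linear axis from 0). All 4 Des+ lines fall from 151 or more to 98.6 or less, the Else lines are level, and liver 2 has no Marco-IBA+ segment in MarcoHi regions.

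The other segment types did not share the size of this difference. In Else segments, the means of MarcoHi and MarcoLo regions were 54.6 and 54.1 in liver 1, 43.8 and 44.4 in liver 2, and 54.8 and 55.2 in liver 3. Liver 4 had 56.2 and 54.8. The log2 difference was 0.005 ± 0.024 (SD, n = 4), with 2 livers up and 2 down. In Marco+IBA+ segments, the means were 30.0 and 43.7 in liver 1, 32.1 and 52.7 in liver 2, and 32.4 and 47.3 in liver 3. Liver 4 had 41.5 and 41.0. The log2 difference there was -0.44 ± 0.31 (SD, n = 4), lower in MarcoHi regions of 3 livers and 0.02 higher in liver 4, which had 2 MarcoLo segments of this type. In Marco-IBA+ segments, the difference of 0.23 ± 0.97 (SD, n = 3) was within the spread, with 2 livers higher and 1 lower. The differences between segment types in this contrast were not tested.

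Depth and the level of stellate cell genes moved with the same contrast. Des+ segments had a median of 3089 counts in MarcoHi and 4602.5 in MarcoLo regions. Among the segments within the range of total counts that both classes of a liver shared, the *Cxcl12* difference was -0.63 ± 0.18 (SD, n = 4) and lower in 4 of 4 livers, but it rested on 1 segment a class in liver 2 and on 2 MarcoHi segments and 1 MarcoLo segment in liver 3. The 10 stellate cell markers in the table, among them the filament protein *Des*, the retinol esterifying enzyme *Lrat* and the matrix protein *Reln*, had a summed Q3-normalized value from 119 to 817 in Des+ segments of MarcoHi regions, with a median of 430, and from 495 to 991, with a median of 731, in those of MarcoLo regions. None of these 10 markers is at 0, since the lowest recovered count in the table is 1. A marker at this lowest count may therefore lie at a floor. Of 41 Des+ segments, *Des* stood at 1 in 20, *Ngfr* in 14 and *Pdgfrb* in 8. *Des* did not pass the threshold between Des+ and Else (0.38, limma adjusted p = 0.0550) or Marco+IBA+ (0.29, adjusted p = 0.158). It was lower in Des+ than in Marco-IBA+ by 0.49 (SE 0.17, adjusted p = 0.0246), where 17 of 24 segments were at 1.

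The marker sum was lower in MarcoHi regions by -0.77 ± 0.21 on the log2 scale (SD, n = 4), in 4 of 4 livers. The median difference of the 10 single markers was smaller, at -0.37. *Dcn* and *Ecm1* weighed most in the sum, with mean Des+ values of 213 and 124, against 56.3 or less for each other marker. Relative to this sum, the *Cxcl12* difference was -0.29 ± 0.17 (SD, n = 4), still lower in 4 of 4 livers, from -0.52 in liver 3 to -0.17 in liver 1. The single markers were uneven, from -1.07 for *Dcn* and -1.04 for *Reln* to -0.17 for *Lrat* and -0.04 for *Pdgfrb*, the platelet-derived growth factor receptor of pericytes and stellate cells. Over all genes, limma (adjusted p) called 27 genes between the classes in Des+ segments, or 4.45%, of which 23 were lower in MarcoHi regions. By that fit, 3 of the 10 markers fell in MarcoHi regions, namely *Dcn*, *Reln* and *Ecm1*, and none rose. In Else segments, where *Cxcl12* was level, 6 of the 10 markers fell, against 5.11% of all genes called in that comparison. *Dcn* fell there by 0.56 (SE 0.04, limma adjusted p = 0.000163) and *Reln* by 0.29 (SE 0.04, adjusted p = 0.00300).

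Markers of other Des+ or stromal cells were few in the table. *Tagln*, an actin-binding protein of smooth muscle and the 1 measured gene of 5 listed smooth muscle cell markers, was higher in Des+ segments of MarcoHi regions by 0.86 (SE 0.24, limma adjusted p = 0.0199). This call was kept under 4 of 10 alternatives, and it was lost without liver 2, 3 or 4, where the difference was 0.39, 0.65 and 1.33. The *Tagln* difference was 1.12 in the livers labelled treated CCl4 (SE 0.33, limma adjusted p = 0.0635) and 0.60 in those labelled control (SE 0.33, limma adjusted p = 0.509), neither past the threshold. In the livers labelled control it changed sign under 1 of 10 alternatives. *Eln*, elastin, the 1 measured gene of 7 listed portal fibroblast markers, differed by 0.16 (SE 0.21, limma adjusted p = 0.756). The part of these cells in the *Cxcl12* difference was not tested.

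**Figure D3:**
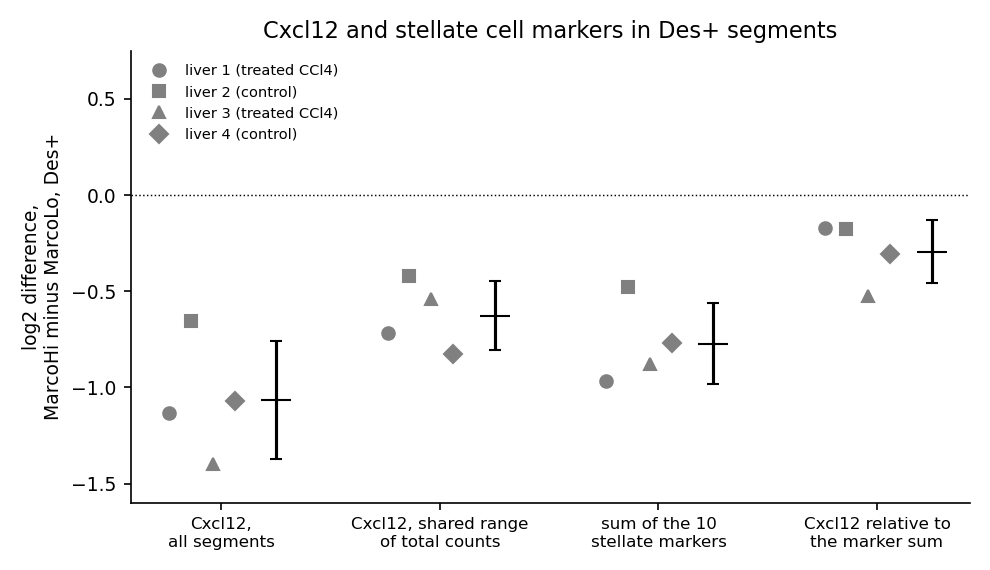
Log2 difference between MarcoHi and MarcoLo regions in Des+ segments, 1 grey symbol for each liver with the mean and SD of the 4 livers beside it in black, for *Cxcl12* in all segments, for *Cxcl12* in segments within the shared range of total counts, for the sum of the 10 stellate cell markers and for *Cxcl12* relative to that sum. All symbols lie below 0, and the means are -1.07, -0.63, -0.77 and -0.29.

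*Marco* in Marco+IBA+ segments gave a graded value for a region beside its class, as a level relative to the other genes of the segment. Its Q3-normalized value in these segments ran from 830 to 1510 in MarcoHi and 142 to 745 in MarcoLo regions of liver 1, and from 870 to 1833 and 343 to 711 in liver 3. In liver 2 it ran from 117 to 353 and from 48.4 to 203, and in liver 4 from 201 to 424 and from 55.9 to 133. The livers labelled control thus had less *Marco* in both classes, with a MarcoHi range below the MarcoHi range of the livers labelled treated CCl4.

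Over the 37 regions with both segments, *Cxcl12* in Des+ ran opposite to *Marco* in Marco+IBA+ in each liver. Pearson's r of the log2 values was -0.87, -0.70, -0.79 and -0.70 in livers 1 to 4, over 11, 9, 10 and 7 regions. Spearman's rho was -0.91, -0.79, -0.70 and -0.39. These correlations describe regions of 1 liver, which share the animal, the section and the normalization, and the ROI classes differ along both axes. Within a class of a liver with at least 6 such regions, r was -0.49 in MarcoLo regions of liver 1. It was -0.42, 0.19 and -0.46 in MarcoHi regions of livers 2, 3 and 4. Spearman's rho was -0.71, -0.70, 0.26 and -0.03 in the same order. Livers 3 and 4 thus held no inverse rank order within their MarcoHi regions. In liver 4, the single MarcoLo region and the lowest MarcoHi region lie at the ends of the range.

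**Figure D4:**
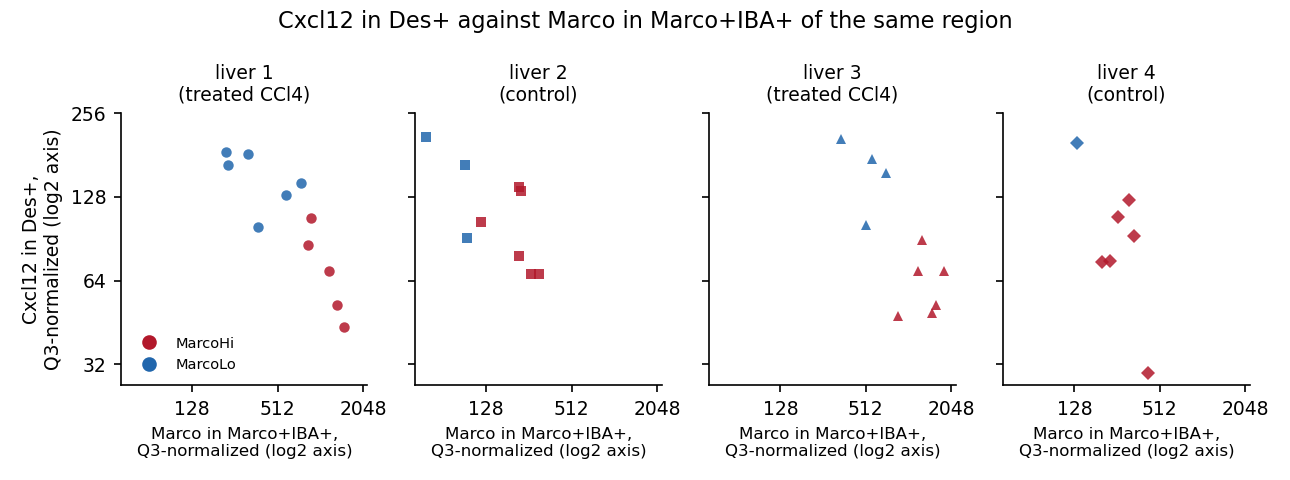
*Cxcl12* in the Des+ segment against *Marco* in the Marco+IBA+ segment of the same region, both Q3-normalized on log2 axes, 1 panel for each liver and 1 point for each of the 37 regions. Points run from the upper left, mostly MarcoLo, to the lower right, with r from -0.87 to -0.70.

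Other pairs of readouts were looser. Within the Des+ segments themselves, where *Marco* had a median Q3-normalized value of 11.6, r between *Cxcl12* and *Marco* was -0.66, -0.11, -0.69 and -0.53 in livers 1 to 4. Within Marco+IBA+ segments r averaged -0.51 over livers, from -0.78 to -0.05, and within Else segments it averaged 0.11, from -0.74 to 0.59. *Cxcl12* in Des+ segments had r from 0.40 to 0.73 with the log2 total count of the same segment. Between *Cxcl12* in Des+ and *Cxcl12* in Else of the same region, r ran from -0.39 to 0.25, so the Else values of a region did not follow its Des+ values.

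By label, *Cxcl12* in Des+ segments was lower in the livers labelled treated CCl4 by -0.24 on the log2 scale, with an SD within pairs of 0.02. With 2 livers a group and no test, this is a value alone, and the pairs also differed in total counts. In Else segments the difference by label was 0.14, with an SD within pairs of 0.16, and without liver 2 it was -0.02. The 13 Else segments of liver 2 ran from 37.7 to 49.2, whereas those of livers 1, 3 and 4 ran from 49.8 to 59.3, 46.6 to 60.3 and 52.7 to 60.3. As a share of the total count, *Cxcl12* in Else segments had a median of 0.299% in liver 2 and 0.375%, 0.383% and 0.373% in livers 1, 3 and 4.

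Of 39 genes listed for the CXCL12 axis, the table holds 6 besides *Cxcl12*, and neither the receptors nor the other chemokines of the list are among them. These are the signalling subunit *Gnai2*, the cell surface proteoglycans *Sdc2*, *Sdc3* and *Gpc4*, and the metalloproteases *Mmp2* and *Mmp14*, which are known to cleave CXCL12. Between Des+ and Else, limma called 394 of 607 genes (64.9%), and among these 6 genes it called 3 higher in Des+ and 1 lower, with a median difference of 0.41 against 0.06 over all genes. Between Des+ and Marco+IBA+ it called 320 (52.7%), and 2 of the 6 were higher in Des+ and 2 lower. Between Des+ and Marco-IBA+ it called 285 (47%), with 1 of the 6 higher and 3 lower. Between Marco+IBA+ and Else it called 244 (40.2%), with 3 of the 6 higher in Marco+IBA+ and 2 lower. Over these comparisons the 6 genes had no common direction.

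*Mmp2*, which encodes gelatinase A, had the highest Pearson's r with *Cxcl12* among these 6 genes, 0.79 over the 31 means of a liver, segment type and ROI class. Its liver means were 15.2 to 21.2 in Des+, 6.57 to 9.79 in Else and 6.79 to 8.04 in Marco+IBA+ segments, so Des+ lay above both without overlap. A high r over means of all segment types already favours such a Des+ excess. Separation of this kind held for 34.3% of all genes against Else and 30.8% against Marco+IBA+, *Mmp2* among them. Des+ exceeded Else by 1.17 (SE 0.16, limma adjusted p = 2.41e-06) and Marco+IBA+ by 1.19 (SE 0.16, adjusted p = 2.40e-06). In Des+ segments it fell in MarcoHi regions by 0.71 (SE 0.21, limma adjusted p = 0.0375), a call that was lost with DESeq2 (adjusted p = 0.920), without the liver block (0.0838) and without any 1 of the livers (0.0583 to 0.486). In the livers labelled treated CCl4, where 2.31% of genes were called, it fell by 1.08 (SE 0.30, adjusted p = 0.0362), a call made under 3 of 10 alternatives. *Mmp2* had a median of 3 counts in Des+ segments and stood at the lowest count of 1 in 5 of 41.

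The syndecans ran apart from each other. *Sdc3* was 13.1 ± 2.42 in Else, 20.5 ± 2.84 in Des+ and 184 ± 28.9 in Marco+IBA+ segments (mean Q3-normalized value, SD, n = 4), and Marco+IBA+ exceeded Else 13.2-fold (limma adjusted p = 7.10e-15). *Sdc2* was 34.2 ± 4.43 in Else and lower in Des+ (18.1 ± 1.33) and Marco+IBA+ segments (17.4 ± 4.29), by 0.88 and 0.96 on the log2 scale (SE 0.13 each, adjusted p = 6.22e-06 and 3.30e-06). *Gpc4*, a glypican, was lower in Marco+IBA+ than in Else segments by 0.97 (SE 0.17, adjusted p = 8.64e-05) and higher in Des+ than in Marco+IBA+ by 0.77 (SE 0.17, adjusted p = 0.000771). *Gnai2*, an inhibitory G protein subunit used by chemokine receptors, was highest in Marco+IBA+ segments, 1.49 above Else (SE 0.16, adjusted p = 1.22e-07) and 1.03 above Des+ (SE 0.16, adjusted p = 1.32e-05). *Mmp14* was higher in Marco+IBA+ than in Else segments by 0.84 (SE 0.22, adjusted p = 0.00359), with liver means from 13.6 to 46.7 in Marco+IBA+ segments.

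Of 17 genes listed for stromal cells that make CXCL12, 4 were measured, and all 4 were higher in Des+ than in Else segments. In this comparison limma called 64.9% of all genes, 226 of them higher in Des+ and 168 lower. *Hgf*, the hepatocyte growth factor, was higher by 1.94 (SE 0.22, limma adjusted p = 9.99e-08), *Pdgfrb* by 0.98 (SE 0.18, adjusted p = 5.99e-05), the adhesion molecule *Vcam1* by 0.65 (SE 0.16, adjusted p = 0.00124) and the receptor *Pdgfra* by 0.62 (SE 0.19, adjusted p = 0.00672). Against Marco+IBA+ segments, *Hgf*, *Pdgfrb* and *Pdgfra* were again higher in Des+, whereas *Vcam1* was lower by 1.61 (SE 0.16, adjusted p = 2.21e-08), with its highest values in Marco+IBA+ segments, at 34.0 ± 6.89 (SD, n = 4). Against Marco-IBA+ segments, *Hgf* was higher in Des+ by 0.86 (SE 0.22, limma adjusted p = 0.00289) and *Vcam1* was lower by 1.08 (SE 0.16, adjusted p = 1.40e-05). *Pdgfra* and *Pdgfrb* did not pass the threshold there. None of the 4 passed the threshold between the ROI classes in Des+ segments, where their differences ran from -0.57 for *Hgf* (adjusted p = 0.105) to -0.04 for *Pdgfrb*. *Hgf* fell in MarcoHi regions of Else segments by 0.17 (SE 0.04, adjusted p = 0.0360), a call made under 3 of 10 alternatives.

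In the livers labelled control alone, and for the difference between the pairs of livers, limma called no gene between the ROI classes in Des+ segments (0% of 607), with 64 and 38 genes at an unadjusted p below 0.05 and none called by edgeR or DESeq2. In Marco+IBA+ segments it called 3 genes (0.494%) between the ROI classes, none of them on either list. *Ccl19*, a chemokine of lymphoid stroma, is the single further gene of the chemokine and chemokine receptor families in the table. It was higher in Des+ than in Else by 0.92 (SE 0.16, limma adjusted p = 4.52e-05) and than in Marco+IBA+ by 1.08 (SE 0.16, adjusted p = 7.43e-06), and its difference between ROI classes in Des+ segments was 0.32 (SE 0.21, adjusted p = 0.453). It stood at the lowest count of 1 in 11 of 41 Des+ segments.

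**Figure D5:**
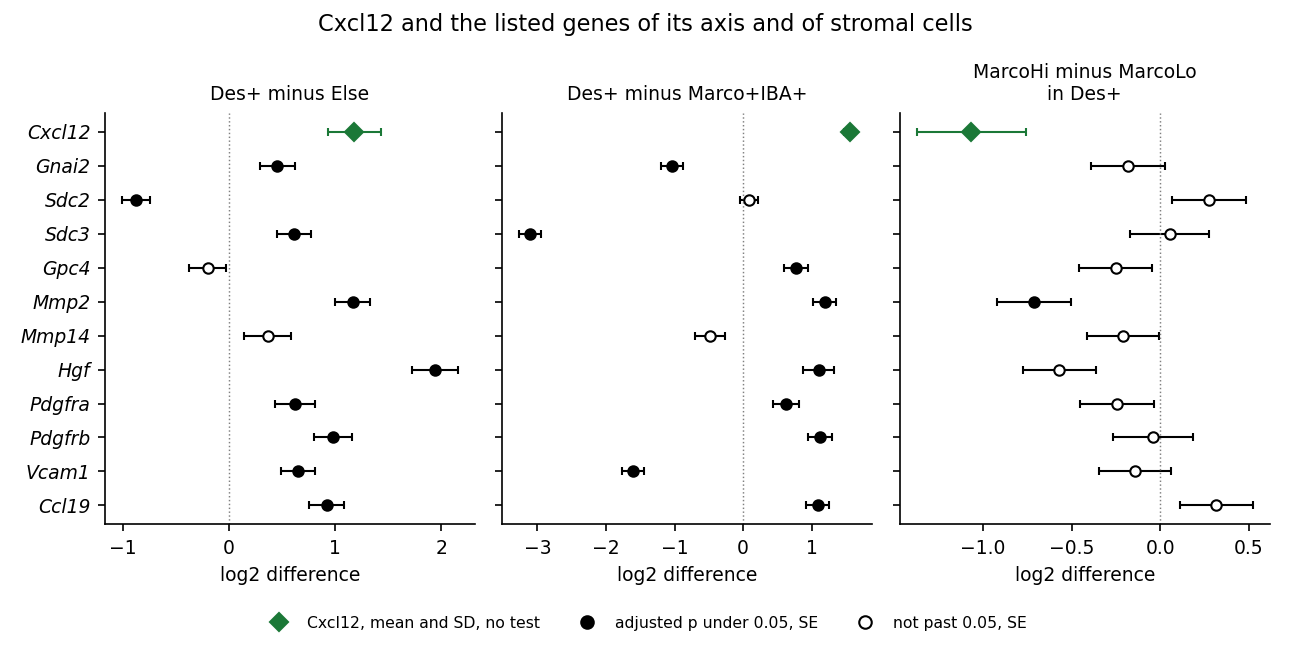
Log2 differences between segment types (left and middle panels) and between ROI classes in Des+ segments (right panel) for *Cxcl12* (green, mean and SD over 4 livers, no test) and for the listed genes (black, limma estimate and SE, filled where the adjusted p is below 0.05). *Mmp2* is the single filled symbol in the right panel, at -0.71.

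Over the 31 means of a liver, segment type and ROI class, the genes most like *Cxcl12* were *Cygb* (Pearson's r 0.84), *Fgfr2* (0.84), *Col6a2* (0.83), *Abcc9* (0.82) and *Col1a1* (0.82), against a median r of -0.01 over 606 genes. *Cygb* encodes cytoglobin, a marker of stellate cells, *Fgfr2* a fibroblast growth factor receptor, *Abcc9* a subunit of potassium channels in pericytes, and *Col6a2* and *Col1a1* encode chains of type VI and type I collagen. The means share livers and normalization. Each of these 5 genes was higher in Des+ than in Else in 4 of 4 livers, by 1.19 (*Col6a2*) to 2.40 (*Col1a1*) on the log2 scale. Since r was taken over means of all segment types, the selection itself favours genes with a Des+ excess. Of all 607 genes, 254 were higher in Des+ than in Else in every liver.

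Within the 41 Des+ segments, taken as deviations from the mean of their liver, the most alike genes were *Dcn* (r 0.86), *Lum* (0.79), *Col3a1* (0.76), *Tgfbi* (0.74) and *Reln* (0.73). Their differences between MarcoHi and MarcoLo regions ran from -1.18 for *Lum* to -0.92 for *Tgfbi*, a matrix protein that cells attach to, and each was lower in 4 of 4 livers. Because r was taken over segments of both ROI classes, the selection itself favours genes that share this direction. Of all 607 genes, 78 were lower in MarcoHi regions of every liver. The lowest r belonged to *Mt1* (-0.63), a metallothionein, *P4hb* (-0.61), the protein disulfide isomerase, and *Hsd11b1* (-0.61), an enzyme that regenerates active glucocorticoid. These 3 genes were lower in Des+ than in Else by -0.83, -1.17 and -1.04 in 4 of 4 livers, a direction that 212 of the 607 genes had in every liver. Against Marco+IBA+ segments their differences were -0.16 for *Mt1*, -0.05 for *P4hb* and 0.24 for *Hsd11b1*. *P4hb* and *Hsd11b1* were higher in MarcoHi than in MarcoLo Des+ segments of every liver, which their selection by low r also favours. Of all 607 genes, 60 were higher in this way. *Marco* had an r of -0.57 in the same segments, which share their total count and Q3 factor across genes.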

How the data were processed

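GeoMx probes were hybridized to sections of 4 mouse livers, and barcodes were released by segment and sequenced (bcl2fastq 2.20.0.422 and the build mm10 per the submitters' processing notes). The signal values deposited by the authors are Q3-normalized counts, after their filters against negative probes, for 607 genes in 159 segments. The paper describes a selection of genes found mainly in stellate cells but gives a larger number of genes for it. In the values themselves, limma called 168 of the 607 genes lower in Des+ than in Else segments. The 75th percentile was 26.074 in every segment. Whole reads were recovered by dividing by the step of each segment (96513 of 96513 values whole, relative tolerance 1e-06). Raw reads and negative probes were not analysed here.

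Group, class and liver came from the labels. One region of liver 4 had its class from the titles alone. The animal was the replicate: segments were averaged within liver, type and ROI class and taken as log2(mean + 1), so that differences of low genes are understated. Between segment types, the class means were averaged first. limma (3.58.1) was fitted over all 607 genes with liver as a block and Benjamini-Hochberg adjustment (threshold 0.05). With liver as the replicate, limma p-values rest on the spread among 4 animals, drawn for each gene toward a value shared over all genes. Those for 1 pair of livers come from a fit of all 4 livers, so they also use the spread in the other pair. Those between segment types come from 1 fit of all 4 types, Marco-IBA+ included, so they also use the spread in the types not compared. edgeR (4.0.16) and DESeq2 (1.42.0) on recovered counts summed by liver, and a linear mixed model (lme4 1.1.37, lmerTest 3.1.3) on single segments, were alternatives. edgeR called 43 genes between ROI classes in Des+ segments and 465 between Des+ and Else. Replicate numbers in the labels number regions, and regions shared by segment types served as a block in an alternative. R was 4.3.3, Python 3.11.15, numpy 2.4.6, pandas 2.3.3 and scipy 1.17.1. The limma step was tested on simulated data.

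*Cxcl12* and the lists were chosen with earlier results of these data known. Named genes were *Cxcl12*, *Marco*, all measured genes of the lists for the CXCL12 axis and for stromal sources, other chemokine and receptor genes, the 5 most alike over the means, and the 5 most and 3 least alike in Des+ segments. *Lum*, *Col3a1* and *Dcn* were also named as the 3 genes below *Cxcl12*, and single markers of the cell type lists, *Tagln* and *Eln* included, after their values were seen. Of the marker lists, 10 of 12 stellate cell, 1 of 11 macrophage, 1 of 5 smooth muscle cell and 1 of 7 portal fibroblast genes were in the table.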

Additional observations from a re-analysis of the deposited data

Results flagged for a closer look

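*Cxcl12* was screened for single values far from the rest of their group in 40 groups of 4 to 10 values, of which chance is expected to pick about 1 in 20, and 3 stood apart. In Des+ segments of MarcoHi regions of liver 4, region 001 had a Q3-normalized value of 29.8 (8 counts), whereas the other 5 segments lay between 74.96 and 125. Without this segment, left out after the values were seen, the difference between ROI classes in Des+ was -1.02 ± 0.32 (SD, n = 4 livers) on the log2 scale. Among the 4 livers, the Else mean of liver 2 was apart from the others in both ROI classes, with 43.8 in MarcoHi regions against 54.6 to 56.2 in the other livers, and 44.4 in MarcoLo regions against 54.1 to 55.2. Its Else segments had a median of 135308 counts, against 164518, 246977 and 269899 in livers 1, 3 and 4; the part of depth in this difference was not tested.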

How the results depend on the processing

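*Cxcl12* kept its direction in Des+ against each other segment type, in Else against Marco+IBA+, between ROI classes in Des+ and Marco+IBA+ segments, and by label in Des+ segments, under every alternative run, while the differences near 0 in Else segments changed sign under some. With the region as a replicate block, so that segments were paired within regions, Des+ exceeded Else by 1.02, Marco+IBA+ by 1.51 and Marco-IBA+ by 1.06, and Else exceeded Marco+IBA+ by 0.43. Re-centring each segment on its median gave 0.82 for Des+ against Else, 1.38 for Des+ against Marco+IBA+ and -0.19 by label in Des+. The median over segments gave -1.49 between ROI classes in Des+ of the livers labelled treated CCl4 and -0.28 by label in Des+, pooled counts gave -0.19 by label, and the share of the total count gave -0.19 by label and -0.021 between ROI classes in Else. Alternatives chosen after seeing the data, the ratio to the stellate cell markers (-0.29) and the shared range of total counts (-0.63), moved the difference between ROI classes in Des+ (-1.07) more than the others. Leaving out each liver kept it between -1.20 and -0.95, and the mean r with *Marco* (-0.77) between -0.79 and -0.73.

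Counts of genes called moved more, and the causes were not tested. Without the liver block, 8 genes in place of 14 were called between ROI classes in Des+ of the livers labelled treated CCl4, and 0 in place of 31 in Else. Without genes of a mean count below 5, 132 in place of 285 were called between Des+ and Marco-IBA+, and 23 in Des+ of the livers labelled treated CCl4. A pseudocount of 5 gave 5 calls between ROI classes in Marco+IBA+ (3 in the main analysis) and 49 in Else. edgeR called 389 genes between Marco+IBA+ and Else (244 by limma), 43 between ROI classes in Des+ (27 by limma) and 30 in Marco+IBA+. DESeq2 called 4 in Des+ of all livers, 4 in the livers labelled treated CCl4, 9 in Marco+IBA+ and 16 in Else. The mixed model called 417 between Marco+IBA+ and Else and, between ROI classes, 42 in Des+, 27 in the livers labelled treated CCl4, 33 in Marco+IBA+ and 83 in Else. Leaving out 1 liver gave 0 (without liver 2 or liver 4) to 20 calls in Des+, 0 to 5 (without liver 1) in the livers labelled treated CCl4, 0 in Marco+IBA+ without any 1 liver, and 10 (without liver 1) to 28 in Else. No listed gene past the threshold changed sign under any alternative. The counts of *Cxcl12* in Marco-IBA+ segments, 1 to 17, limit what can be said of that segment type.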
